A study of Mus musculus with 6 samples.

Results

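The suppressor of cytokine signalling (SOCS) family was examined as 8 genes chosen by gene name from the deposited expression table: Cish, Socs1, Socs2, Socs3, Socs4, Socs5, Socs6 and Socs7. All 8 were among the 28789 genes of the table. RNA came from TCMK1, a mouse renal tubular epithelial cell line. Every sample carried the label of Ang II (angiotensin II) treatment. The 2 groups were 3 libraries with the genotype control and 3 libraries with the genotype YOD1 overexpression, and YOD1 is a deubiquitinase. How YOD1 was introduced and what the control cells received are not given in the sources used here. All libraries come from 1 cell line. The labels do not say that the libraries of a group came from separate cultures, so the spread between them may be technical. The series title names JAK2 as the protein that YOD1 acts on, and the SOCS proteins are the feedback inhibitors of the JAK kinases.

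Cytokine receptors activate JAK kinases, which phosphorylate STAT transcription factors. STATs then switch on SOCS genes, whose proteins bind the receptor or the kinase through an SH2 domain and stop the signal. A second domain, the SOCS box, recruits elongins B and C and the scaffold cullin-5, so that SOCS proteins also act as substrate receptors of a ubiquitin ligase. CISH, SOCS1, SOCS2 and SOCS3 are the classical cytokine-induced members, with SOCS1 and SOCS3 able to inhibit the JAK kinase domain directly. SOCS4 and SOCS5 are best known for acting on EGF receptor signalling, and SOCS6 and SOCS7 for binding insulin receptor signalling proteins. In the kidney, SOCS1 and SOCS3 are known as brakes on interferon and interleukin-6 type signals.

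The start regions of 4 members were available from RefSeq (build GRCm38.p6, 250 bases before to 50 after the annotated start): Cish, Socs1, Socs3 and Socs4. They were searched on both strands for the STAT dimer motif GAS, TTCNNNGAA, which reads the same on both strands, and for the interferon-stimulated response element ISRE, taken as GAAA, any 2 bases and GAAA again; overlapping matches were counted. The stretches with a match are shown because STAT binding to such motifs is the textbook route of SOCS induction. Capitals mark the motif.
Cish, chr9:107296654-107296683, plus strand: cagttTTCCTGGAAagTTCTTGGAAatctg
Socs3, chr11:117969502-117969530, minus strand: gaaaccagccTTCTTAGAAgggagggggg
Socs1, chr16:10785597-10785626, minus strand: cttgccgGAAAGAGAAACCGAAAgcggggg

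Cish held 2 GAS matches side by side, the first of them beginning at base 1 of the annotated transcript, inside an annotated Cish exon. Socs3 held 1 GAS match, which began at position -154 from the RefSeq start. An annotated Socs3 exon lies between this match and that start. Socs1 held 2 overlapping ISRE matches, the first beginning at position -83, and no GAS match. Socs4 held neither motif in this window. Of 32851 mouse start regions of the same length, 8.3% held a GAS match, 0.457% held 2 or more, 3.44% held an ISRE match and 0.225% held 2 or more. A match is a string of letters and no evidence of binding in these cells.

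Levels were read in FPKM (fragment counts scaled to transcript length and to the mapped fragments of the library), so that genes can be set side by side. The order over the 6 libraries was Socs7, Socs3, Socs5, Socs4, Cish, Socs6, Socs2 and Socs1, with means from 15.2 FPKM for Socs7 to 0.169 FPKM for Socs1. Socs7 and Socs3 stood apart: the lowest Socs7 library (11.3 FPKM) lay above the highest Socs3 library (9.30 FPKM), and the lowest Socs3 library (6.87 FPKM) above the highest Socs5 library (3.46 FPKM). Together these 2 genes made up 70.3% to 77.8% of the summed FPKM of the family. Socs5, Socs4 and Cish followed with ranges that overlapped between neighbours, so their order among themselves is not beyond their spread. Socs6 came next, and all its libraries lay below all Cish libraries. The ranges of Socs6 and Socs2 overlapped, although Socs2 was below Socs6 in all 6 libraries, and Socs1 lay below Socs2 without overlap. Among the tested genes, the control mean of Socs7 stood at the percentile 70.1 and that of Socs3 at 51.1, while Socs5, Socs4 and Cish stood at 26.3, 24.8 and 19.2.

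**Figure D1:**
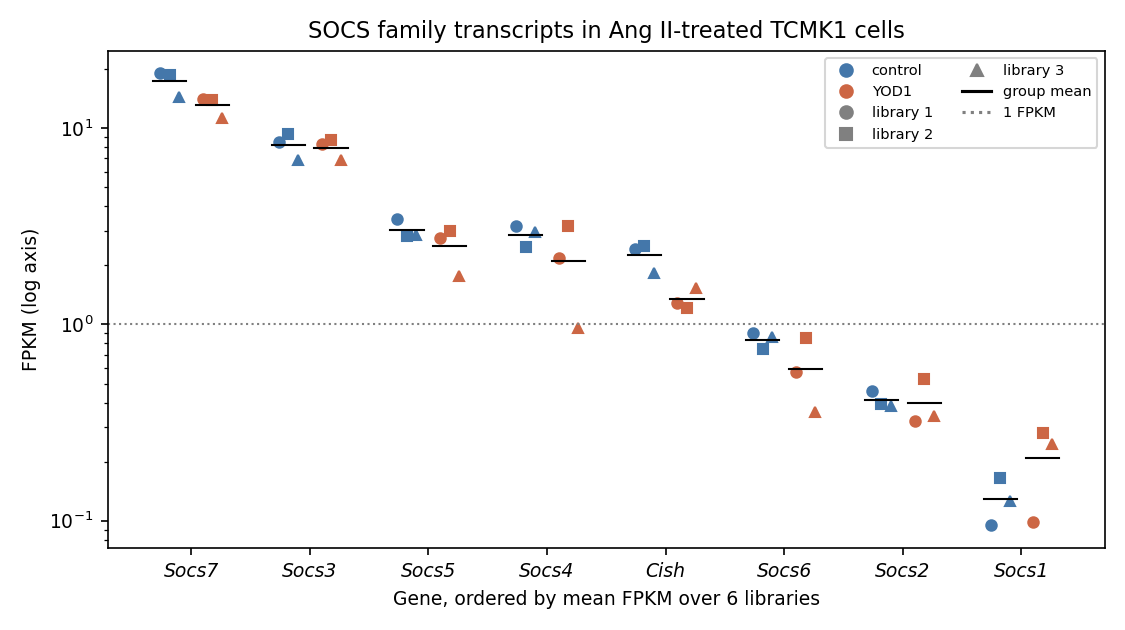
FPKM of the 8 SOCS genes on a log axis, ordered by their mean over 6 libraries; blue marks are control and orange marks YOD1 libraries, the marker shape gives the library number, and black bars are group means. Socs7 and Socs3 lie above all other members, the YOD1 libraries of Cish and Socs7 lie below their controls, and Socs6, Socs2 and Socs1 lie under the dotted line at 1 FPKM in every library.

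Both groups were compared with limma, a linear model per gene with moderated variances, on log2(FPKM + 1) over the 11483 genes that reached 1 FPKM in 3 libraries or more. Adjusted p-values are Benjamini-Hochberg values over all those genes, and every fold change below is a log2 difference of YOD1 minus control on that scale, which understates changes of low genes. Cish, Socs3, Socs4, Socs5 and Socs7 passed the filter, and Socs1, Socs2 and Socs6 did not. None of the 5 tested members was called at an adjusted p of 0.05 in limma, against 0.479% of all tested genes (0.444% called higher and 0.0348% called lower). At an unadjusted p under 0.05, Cish and Socs7 passed, both with lower values, against 20.9% of all tested genes in either direction and 13% with lower values. The authors' deposited table marks none of the 8 as significant, against 0.993% of its genes, with q from 0.153 for Cish to 0.986 for Socs2. The fold change lay below 0 in all 5, as it did in 63.6% of the tested genes. Their median was -0.38, against -0.10 over all tested genes. Without YOD1 library 3 these medians were -0.08 and -0.05, and after length correction, described below, -0.19 and -0.09. Cish and Socs7 had lower groups without overlap, 2 of 5, and no member had a higher group without overlap; over all tested genes 19.1% were lower and 9.77% higher without overlap, 28.9% in all. In RNA from whole cultures, less RNA per cell and fewer cells that carry a transcript cannot be told apart.

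Some facts of the libraries bear on these values. Yod1 stood between 0.684 and 0.842 FPKM in the controls and at 1.73, 7.56 and 1.86 FPKM in YOD1 libraries 1, 2 and 3 (limma adjusted p = 0.141), so the labels and the transcript have the same order, with library 2 highest. The authors' deposited table marks Yod1 as significant (q = 0.031). On the first principal component the scores were -24.7 to -11.65 in controls, 10.7 and 8.64 in YOD1 libraries 1 and 2, and 36.4 in YOD1 library 3. This component thus holds both the groups and the distance of YOD1 library 3. YOD1 library 3 had the lowest value of the 6 libraries in 42.5% of tested genes. By the steps between low FPKM values, which 2.73% to 3.96% of low genes shared, relative depth was 0.804 to 0.843 in YOD1 libraries, with control 1 as the reference. The 18S-related transcript Rn18s-rs5 took 0.421% to 0.733% of the FPKM sum in controls and 2.17% to 3.90% in YOD1 libraries. Longer transcripts had lower fold changes, from a median of 0.09 in the shortest of 10 length bins to -0.30 in the longest. The tubular markers Cdh16, Pax8 and Krt18 were present in every library, with Cdh16 and Pax8 lower in YOD1 libraries without overlap and Krt18 higher. The summed tubular markers ranged from 755 to 873 FPKM in controls and from 824 to 1083 FPKM in YOD1 libraries. The proximal tubule transporter Slc34a1 was at or near 0, and all libraries had little Cubn, an endocytic receptor of proximal tubule cells, while its partner Lrp2 (3.60 and 2.75 FPKM in the group means) and the water channel Aqp1 (19.3 and 21.2 FPKM) were present. The pan-leukocyte gene Ptprc did not exceed 0.0708 FPKM, and the T cell gene Cd3e was at or near 0. The summed leukocyte markers (6 genes, mostly Cd68 and Lyz2) ranged from 20.7 to 31.2 FPKM in controls and from 23.1 to 34.3 FPKM in YOD1 libraries. Lyz2 was higher in YOD1 libraries without overlap (1.47 to 9.04 against 10.5 to 18.7 FPKM), as was Adgre1 at no more than 0.165 FPKM, and Cd68 overlapped (12.7 to 22.9 against 12.3 to 15.4 FPKM). The 4 endothelial markers summed to 0.674 to 1.33 and 1.24 to 2.10 FPKM, and the 6 fibroblast markers to 12.5 to 15.2 and 6.90 to 14.7 FPKM. Their part in the SOCS values was not tested.

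Cish had the lowest fold change of the family over all 6 libraries, although Socs4 was lower without YOD1 library 2 (-0.63 against -0.43) or without control 2 (-0.46 against -0.42). CISH is the founding member, induced mainly through STAT5 by growth hormone, prolactin, erythropoietin and interleukin-2 type receptors, and it blocks STAT5 docking. Controls 1, 2 and 3 had 2.43, 2.51 and 1.83 FPKM, and YOD1 libraries 1, 2 and 3 had 1.28, 1.21 and 1.52 FPKM. The highest YOD1 library lay below the lowest control. The group means were 2.26 ± 0.37 and 1.34 ± 0.16 FPKM (SD, n = 3 each), a ratio of 0.594. The log2 difference was -0.47 (SE 0.15), its 95% interval before adjustment ran from -0.82 to -0.13, and the limma adjusted p was 0.153. It stayed between -0.57 and -0.42 when any 1 library was left out. Cish was the member in which YOD1 library 3 was the highest of its group, in contrast to Socs3, Socs4, Socs5, Socs6 and Socs7, where that library had the lowest of all 6 values. Exons of the antisense genes Gm17040 and Gm17041 cover 4.07% and 7.46% of the annotated Cish exon bases, and the counting is not stated to use strand, so reads of these genes cannot be told apart there.

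Socs3 encodes the inhibitor that binds the gp130 receptor chain and JAK kinases after interleukin-6 type signals, and STAT3 is its main inducer. Controls 1, 2 and 3 had 8.45, 9.30 and 6.89 FPKM, and YOD1 libraries 1, 2 and 3 had 8.29, 8.69 and 6.87 FPKM. The groups overlapped over nearly their whole range. Means were 8.22 ± 1.22 and 7.95 ± 0.96 FPKM (SD, n = 3 each), and the 95% interval of the log2 fold change ran from -0.40 to 0.32 (limma adjusted p = 0.902). That interval leaves room for a change in either direction, and the sign itself turned with median-ratio scaling of the libraries (0.04) and without control 2 (0.05) or YOD1 library 3 (0.05).

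Socs1 and Socs2, the other cytokine-induced members, were barely detected. SOCS1 restrains interferon signalling by inhibiting JAK kinases. Its transcript stood at 0.0949, 0.165 and 0.126 FPKM in controls 1, 2 and 3 and at 0.0989, 0.280 and 0.246 FPKM in YOD1 libraries 1, 2 and 3. YOD1 libraries 2 and 3 lay above all controls, while YOD1 library 1 lay within them. In the fit without a filter, where limma called 0 of 28789 genes and 11.9% had an unadjusted p under 0.05, the difference for Socs1 was 0.10 ± 0.07 (log2, SE; limma adjusted p = 0.606). Socs2 restrains growth hormone signalling. It had 0.461, 0.394 and 0.382 FPKM in the controls and 0.323, 0.528 and 0.342 FPKM in YOD1 libraries 1, 2 and 3, so that the YOD1 values lay on both sides of the controls (log2 fold change -0.02, limma adjusted p = 0.936 without a filter). Read depth is unknown from FPKM, and at these levels no difference in Socs1 or Socs2 was detectable.

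Socs4 and Socs5, the members linked to EGF receptor turnover, had overlapping groups. Socs4 had 3.17, 2.47 and 2.96 FPKM in controls 1, 2 and 3 and 2.17, 3.16 and 0.954 FPKM in YOD1 libraries 1, 2 and 3. YOD1 library 2 was within the controls, and YOD1 library 3 was the lowest of all 6. The log2 fold change of -0.38 (SE 0.25, limma adjusted p = 0.389) therefore rested on library 3: without it the value was -0.08, and without YOD1 library 2 it was -0.63. Socs5 had 3.46, 2.82 and 2.84 FPKM in the controls and 2.74, 2.98 and 1.76 FPKM in YOD1 libraries 1, 2 and 3, again with library 3 lowest. Its log2 fold change was -0.22 (SE 0.18, limma adjusted p = 0.483) and -0.06 without YOD1 library 3. Egfr, the receptor itself, stood at 5.68 ± 0.60 and 6.17 ± 1.83 FPKM (SD, n = 3 each; limma adjusted p = 0.854), and its sign turned without YOD1 library 2 (log2 -0.10).

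Socs7 was the most abundant member, and SOCS7 is known for binding insulin receptor substrate proteins and for shuttling between nucleus and cytoplasm. Controls 1, 2 and 3 had 19.0, 18.7 and 14.4 FPKM, and YOD1 libraries 1, 2 and 3 had 14.1, 13.9 and 11.3 FPKM. The groups did not overlap, but the gap between the lowest control and the highest YOD1 library was small beside the spread within either group. Means were 17.4 ± 2.6 and 13.1 ± 1.6 FPKM (SD, n = 3 each), and the log2 difference was -0.38 (SE 0.16) with a 95% interval from -0.73 to -0.03 before adjustment (limma adjusted p = 0.218). Removing a trend of transcript length from each library moved this value to -0.19. Socs6, its closest relative, stayed under 1 FPKM. It had 0.902, 0.751 and 0.858 FPKM in the controls and 0.573, 0.855 and 0.359 FPKM in YOD1 libraries 1, 2 and 3, so that library 2 was again within the controls. Without a filter its log2 fold change was -0.21 (SE 0.14, limma adjusted p = 0.593), and -0.10 after length correction or without YOD1 library 3.

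The fold change of each member was set beside the median of tested genes of similar transcript length. Socs4 and Socs7, with longest annotated transcripts of 6877 and 7015 bp, had -0.38 each in a length bin whose tested genes had a median of -0.30. Socs6 (6036 bp) had -0.21 beside a bin median of -0.23, Socs5 (4648 bp) -0.22 beside -0.20, and Socs3 (2552 bp) -0.04 beside -0.07. Socs1 (2908 bp) had 0.10 beside -0.07, and Socs2 (4242 bp) -0.02 beside -0.20, both above their bins. Socs1, Socs2 and Socs6 are under the filter, while the bins hold tested genes only, and this scale understates changes of low genes. With a pseudocount (the number added to FPKM) of 0.1, Socs6 had -0.49, Socs2 -0.06 and Socs1 0.39. These 3 are therefore not on a like footing with their bins. Cish departed from its bin the most among the tested members: its longest transcript of 4697 bp, an RNA annotated without a coding sequence, falls in a bin with a median of -0.20, and its coding transcript of 2850 bp in a bin with -0.07, against its own -0.47. In YOD1 library 3 alone, the median deviation from the control mean was -0.18 over all tested genes and -0.56 in the longest bin, and Socs4 and Socs7 deviated by -0.98 and -0.57. In YOD1 library 2 the longest bin deviated by -0.07, and Socs4 and Socs7 by 0.11 and -0.29. Cish deviated by -0.51, -0.55 and -0.36 in YOD1 libraries 1, 2 and 3. After length correction Cish had -0.35, Socs4 and Socs7 -0.19 each, Socs5 -0.10 and Socs3 -0.08, with limma adjusted p from 0.26 to 0.817. The correction used the longest annotated transcript of each gene, for Cish the 4697 bp RNA without a coding sequence. The part of transcript length in each value was not tested beyond this correction.

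**Figure D2:**
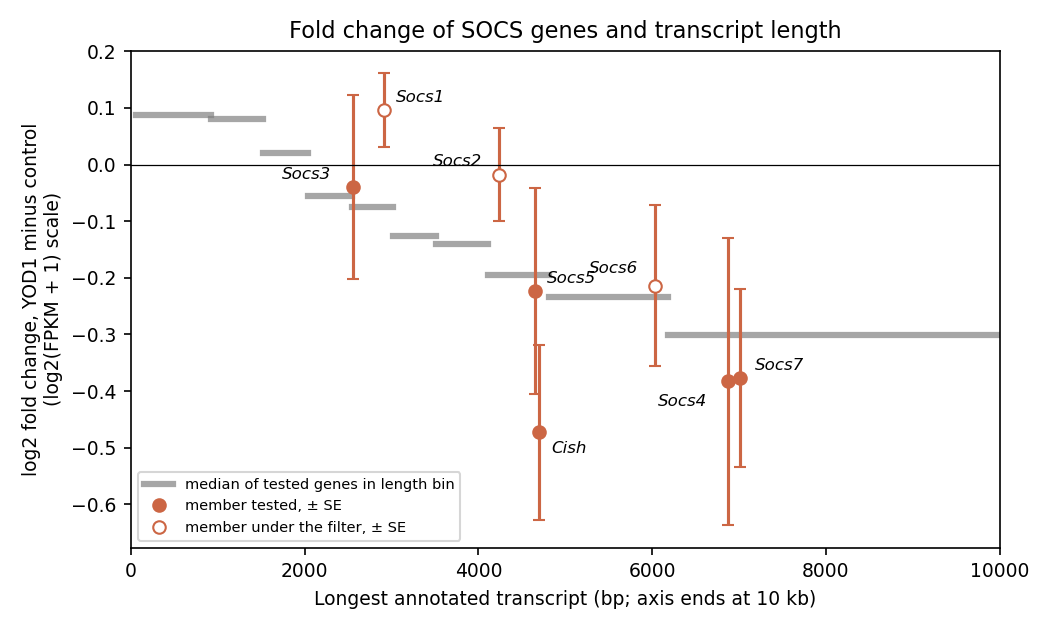
Log2 fold change of each SOCS gene (YOD1 minus control, log2(FPKM + 1) scale, bars are SE) against the length of its longest annotated transcript; filled circles passed the filter and open circles did not. Grey bars are medians of the tested genes in 10 length bins, from 0.09 to -0.30. Socs3, Socs5 and Socs6 lie on or near the bars, and Cish at -0.47 lies farthest below. Open circles are low genes, whose changes this scale understates, so their distance to the bars is not comparable.

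Within a library, ratios between members do not depend on how the library was scaled. The ratios given here were chosen after the values were seen and are descriptions. Socs3 over Socs7 was 0.445, 0.497 and 0.479 in the controls and 0.587, 0.625 and 0.607 in YOD1 libraries 1, 2 and 3. The groups were apart, and each was narrow. Socs3 over Cish was 3.48, 3.71 and 3.76 in the controls and 6.46, 7.16 and 4.51 in YOD1 libraries 1, 2 and 3, with all YOD1 libraries above all controls. Cish over Socs7 overlapped, at 0.127 to 0.134 in controls and 0.0873 to 0.135 in YOD1 libraries, and so did Socs4 over Socs5, at 0.876 to 1.04 and 0.541 to 1.06. Socs3 made up 22.3% to 25.1% of the family sum in controls and 27.5% to 29.4% in YOD1 libraries. The sum of the 8 members was 35.1 ± 4.2 FPKM in controls and 28.2 ± 4.3 FPKM in YOD1 libraries (SD, n = 3 each), and the groups overlapped, with YOD1 library 2 at 31.6 FPKM above control 3 at 30.3 FPKM. Socs3 (2552 bp) and Socs7 (7015 bp) fall in length bins with medians of -0.07 and -0.30. The coding transcript of Cish (2850 bp) falls in the bin of Socs3, and its longer RNA without a coding sequence (4697 bp) in a bin with -0.20. The part of length in these ratios was not tested.

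**Figure D3:**
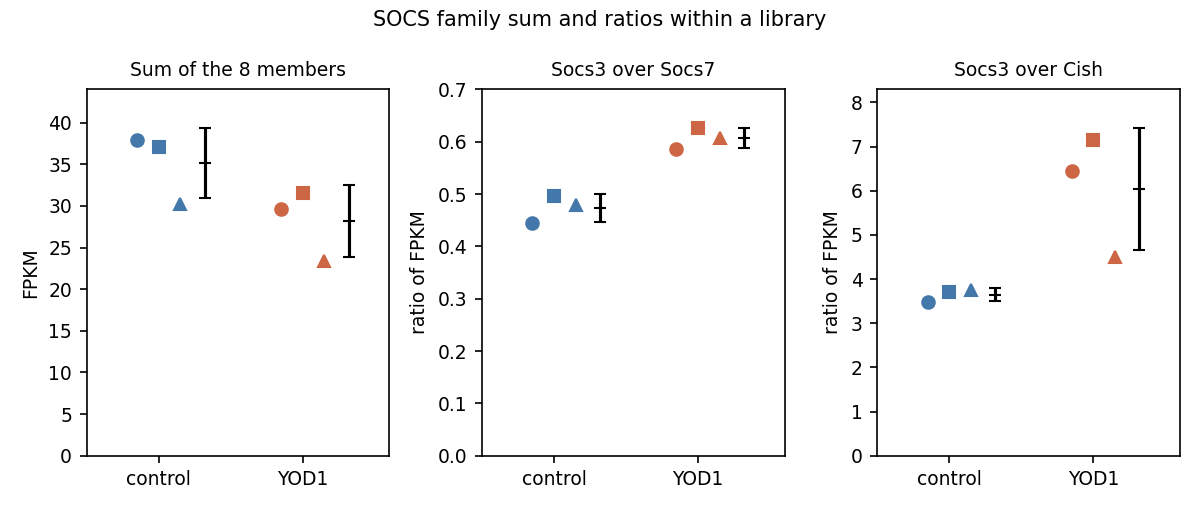
Summed FPKM of the 8 SOCS genes and ratios of Socs3 to Socs7 and of Socs3 to Cish in each library; marker shapes give library 1 (circle), 2 (square) and 3 (triangle), and the black bars are group mean ± SD. The sums overlap between groups, while both ratios are higher in all 3 YOD1 libraries.

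Genes whose values ran most like those of a member were read from Pearson's r of log2(FPKM + 1) over the 6 libraries, as a description. Library 3 of the YOD1 group and depth are shared by all points. Cish was closest to Sirt2, a deacetylase (r = 0.997), Mapre2 (0.995) and Pacsin3 (0.995), and 163 tested genes had r over 0.95. Socs7 was closest to Stat6 (0.998), the STAT of interleukin-4 signalling, then Chrnb1 (0.996) and Parp3 (0.995), and 153 tested genes had r over 0.95 with it. Socs4 was closest to Zc3h7a, AI597479 (both 0.997) and Samd8 (0.996), and Socs5 to Brox (0.999), Lamp2 (0.998) and Arl5b (0.997), with 602 and 482 genes over 0.95. Socs3 was closest to Zfta (0.982), Tti2 (0.975) and Gm50388 (0.965), and only 6 genes had r over 0.95 with it.

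None of the kinases and STATs upstream of SOCS induction passed the test. Of 11 genes, 10 were tested and 0 were called in either direction, against 0.479% of all tested genes. In 7 the log2 fold change lay below 0, against 63.6% of all tested genes (medians -0.34 and -0.10). In 6 of the 10 the YOD1 group was lower without overlap, against 19.1% of all tested genes. All 10 have long transcripts, in length bins with medians from -0.14 to -0.23, so all tested genes are not a like background. The genes given with values next are all from the 7 below 0. Stat5b, a known inducer of Cish, stood at 18.4 ± 0.4 and 14.4 ± 1.7 FPKM, and Stat5a at 8.84 ± 0.70 and 6.76 ± 0.86 FPKM (SD, n = 3 each), both without overlap (limma adjusted p = 0.201 and 0.235). Stat6 stood at 25.1 ± 3.4 and 18.8 ± 2.0 FPKM (SD, n = 3 each; limma adjusted p = 0.188). Jak1 and Tyk2 had log2 fold changes of -0.41 and -0.34 without overlap. Jak2 had -0.32 with overlapping groups (limma adjusted p = 0.338). Jak1 was at -0.19 without YOD1 library 3, and Jak2 at -0.15 without control 3. After length correction Stat5b had -0.20, Stat5a -0.27 and Stat6 -0.33, and Jak1, Tyk2 and Jak2 had -0.28, -0.21 and -0.19.

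Of 26 receptors and adaptors that SOCS proteins bind, 16 were tested and 0 were called, with 12 below 0 and a median of -0.20. Over all tested genes 0.479% were called and 63.6% lay below 0. Il6st, the gp130 chain bound by SOCS3, stood at 12.5 ± 0.5 and 10.5 ± 3.0 FPKM (SD, n = 3 each), a log2 difference of -0.26 that was -0.04 without YOD1 library 3. The interferon receptor chains Ifnar1 and Ifngr1 had log2 fold changes of -0.25 and -0.06, the former 0.02 without YOD1 library 3 and the latter 0.03 with median-ratio scaling. The receptor chains that pair with gp130, Lifr and Osmr, had control means of 0.0858 and 0.146 FPKM and did not pass the filter. The growth hormone receptor gene Ghr, upstream of Cish and Socs2 in other cells, had control and YOD1 means of 0.256 and 0.390 FPKM, also under the filter. Insr and Irs2, partners of SOCS6 and SOCS7, had log2 fold changes of -0.28 and -0.33, and Irs1 had 0.21. All 3 had overlapping groups, and each rested in part on 1 library: Insr was at -0.07 without YOD1 library 3, Irs2 at -0.13 without control 1 and Irs1 at 0.01 without YOD1 library 2.

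The ligase partners of the SOCS box were present in every library. All 12 were tested and 0 were called, with 5 above and 7 below 0 and a median of -0.07. The shares over all tested genes were 0.479% called and 63.6% below 0. Elob and Eloc, the elongins that bind the SOCS box, stood at 123 ± 17 and 132 ± 33 FPKM and at 6.04 ± 1.19 and 5.05 ± 0.78 FPKM (SD, n = 3 each). Cul5, the cullin scaffold, stood at 1.53 ± 0.18 and 1.09 ± 0.38 FPKM (SD, n = 3 each) without overlap; its log2 difference was -0.29 (limma adjusted p = 0.337), and -0.13 without YOD1 library 3 or -0.12 after length correction. Rnf7, its RING partner, had 0.30 with higher YOD1 values and no overlap (limma adjusted p = 0.259), and 0.14 after length correction.

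Of 27 STAT-responsive genes outside the SOCS family, 25 were tested, and 4 were called higher and 0 lower in limma, with 18 above 0 and a median of 0.44. Without overlap, 14 were higher and 0 lower. Over all tested genes 0.444% were called higher and 9.77% were higher without overlap. The list was drawn up with earlier results of these data known, so its counts beside these shares are a description and no test. The 4 were Irf7, an interferon response factor (log2 fold change 3.47), the acute-phase gene Saa3 (2.07), the transcription factor Cebpd (1.53) and the immunoproteasome subunit Psmb8 (1.45), with limma adjusted p from 0.00228 to 0.0168. Saa3 stood at 19.8 ± 2.6 and 87.0 ± 14.6 FPKM, and Irf7 at 3.26 ± 0.57 and 52.8 ± 35.5 FPKM (SD, n = 3 each). None of the 4 calls held without the filter (limma adjusted p from 0.129 to 0.249), but that fit called 0 of all 28789 genes. Cebpd and Psmb8 were also not called without control 1 (limma adjusted p = 0.0784 and 0.053) or without control 2 (0.0821 and 0.071), Cebpd with a replicate block (0.0552) and Psmb8 after length correction (0.0544). The other 21 were not called. Among them, named after their values were seen, Isg15 (log2 2.56), Hp (1.59), Irf9 (1.20), Cxcl10 (1.11) and Junb (0.94) were higher without overlap, with limma adjusted p from 0.0501 for Isg15 to 0.179 for Hp, and Fos had group means of 4.50 and 1.54 FPKM with overlapping groups (0.149). Of these, the authors' deposited table marks Isg15, Irf9, Cxcl10 and Fos as significant, and does not mark Hp and Junb. With median-ratio scaling Isg15, Cxcl10 and Junb were called higher (limma adjusted p = 0.0193, 0.0176 and 0.0211). These 3 were also called without YOD1 library 3 (0.0366, 0.0328 and 0.00488), Isg15 without YOD1 library 1 (0.0177) or 2 (0.00321), Cxcl10 without control 3 (0.0316), and Fos, lower, without control 3 (0.013). Hp was at 0.76 without control 1, and Irf9 at 0.77 without YOD1 library 2. Of those named by rule, Pim1, a STAT5 and STAT3 target kinase, had -0.08, Bcl3 0.07, Irf1 -0.07 and Bcl6 -0.19, all with overlapping groups. The sign turned with median-ratio scaling for Pim1 and Irf1, and with length correction for Bcl3. Many of the listed genes are also induced by NF-kB or interferon regulatory factors. The SOCS genes and these genes were not compared by a test.

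**Figure D4:**
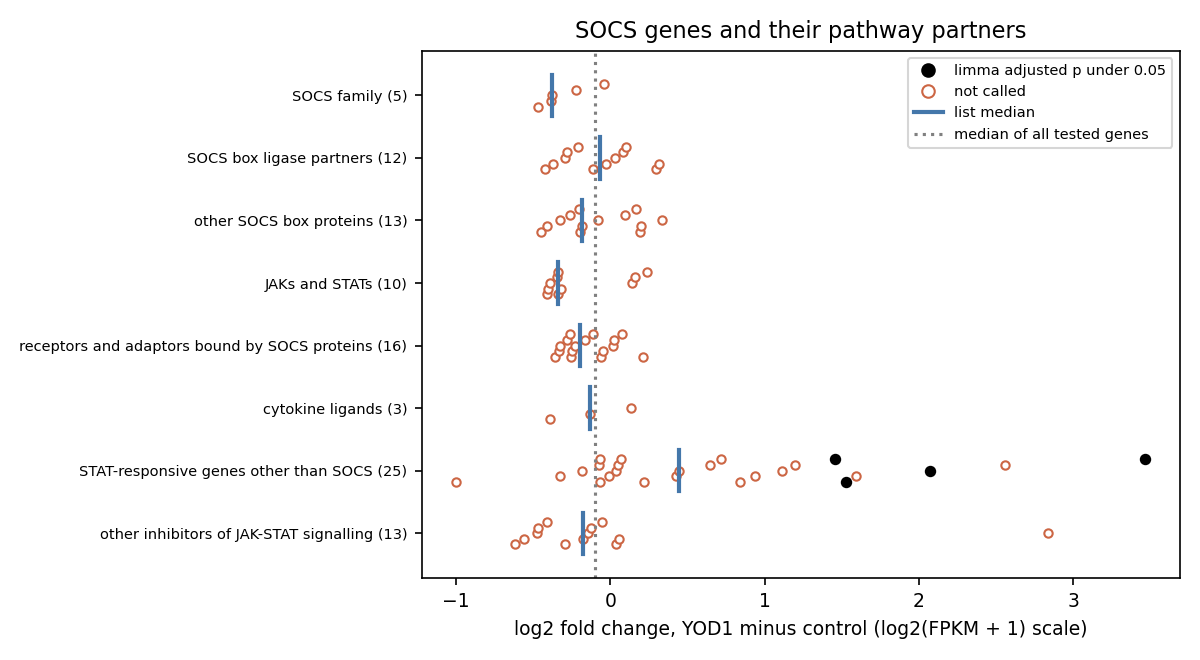
Log2 fold change (YOD1 minus control) of tested SOCS genes and of 7 lists of pathway partners, 1 circle per gene, with the number tested in brackets; filled circles passed the limma test, blue bars are list medians and the dotted line is the median of all tested genes. The 4 filled circles are Irf7, Saa3, Cebpd and Psmb8, and the SOCS median is -0.38 (-0.08 without YOD1 library 3).

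Among other inhibitors of the pathway, 13 of 14 were tested and 0 were called, with 3 above and 10 below 0 and a median of -0.18. The shares over all tested genes were 0.479% called and 63.6% below 0. The largest difference of the list was that of Usp18, an interferon-induced inhibitor of the interferon receptor, named after its values were seen: at most 1.51 FPKM in controls and 7.84, 55.9 and 8.47 FPKM in YOD1 libraries 1, 2 and 3 (log2 2.84, limma adjusted p = 0.0759; marked as significant in the authors' deposited table). It was called with median-ratio scaling (limma adjusted p = 0.0364), without YOD1 library 2 (0.00188) and without YOD1 library 3 (0.0403). Pias3, an inhibitor of STAT3, was at -0.62 (log2) without overlap (limma adjusted p = 0.0811), and the JAK phosphatase gene Ptpn2 had -0.18 with overlapping groups. Beside the promoter motifs printed above, 662 tested genes had a GAS match in their RefSeq start region, and their median log2 fold change was -0.10, with 4 called higher. The 39 with 2 or more, Cish among them, had a median of -0.08, with 0 called by limma. The 276 tested genes with an ISRE match had a median of -0.05, of which 6 were called higher. The 20 with 2 or more had a median of 0.30, of which 3 were called higher, and Socs1, which also holds 2, was under the filter. Genes with neither motif had a median of -0.12, and 23 of 7421 were called higher. Over all 8318 tested genes with a start region, 31 were called higher.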

How the data were processed

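The members, lists and alternatives were chosen with earlier results of these data known. The authors deposited FPKM for each gene and library. Per the file headers, the same table holds the fold ratio of the groups, the log2 of that ratio, p-values and q-values. The sources used here do not give the test behind them. Bowtie 0.12.2, HISAT2 2.0, the build mm8 and StringTie 1.3.0 appear, without roles, in the submitters' processing notes. Poly(A) RNA was sequenced in paired ends, per the labels' protocols. Columns of per-sample values left unused numbered 0.

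FPKM holds no counts, so no count test was run and read depth is unknown. Genes reaching 1 FPKM in 3 or more of the 6 libraries were tested with limma 3.58.1 in R 4.3.3 on log2(FPKM + 1) (variance trend, two-sided, Benjamini-Hochberg). The method was tested on simulated data. With 3 against 3 libraries an exact permutation test cannot go below 0.1, so none is given. Intervals use limma's moderated degrees of freedom. Transcript lengths came from GENCODE M21, matched by transcript identifier for 99.2% of tested genes. Its build (GRCm38) is not the one named, so the only coordinates given are those of the RefSeq start regions, in GRCm38.p6. Named genes were all members, Yod1, Jak2, a set fixed by name, list genes that passed the test, and the 3 genes most correlated with each tested member. The ratios, the genes said to be chosen after their values were seen, 4 other SOCS box genes, Ifnb1 and the cell type markers were named outside this rule. The list genes Ifng and Umod were not analysed here, and some other items are not reported here. Tables and plots used Python 3.11.15, pandas 2.3.3 and matplotlib 3.10.9.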

Additional observations from a re-analysis of the deposited data

How the results depend on the processing

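The number of SOCS members called was 0 in limma under every alternative fitted. Of the members, Cish, Socs4, Socs5, Socs6 and Socs7 stayed below 0 and Socs1 above 0 under every alternative that could be fitted for them. The sign turned for Socs3 with median-ratio scaling (0.044), and for Socs2 with median-ratio scaling (0.0082), length correction (0.053) and length and GC correction (0.070, chosen after seeing the data). With 1 library left out, Socs3 ran from -0.147 to 0.050, Socs2 from -0.084 to 0.020, Socs4 from -0.63 to -0.085, Socs5 from -0.33 to -0.063 and Socs7 from -0.50 to -0.28. A pseudocount of 0.1 gave Cish -0.70, Socs4 -0.57, Socs6 -0.49 and Socs1 0.39. The number of genes called over all tested, 55 (51 higher, 4 lower), was 0 without a filter (11.9% with an unadjusted p under 0.05), 144 with median-ratio scaling, 19 with length correction (16 higher, 3 lower), 20 with length and GC correction (14 higher, 6 lower), and 19 to 242 with 1 library left out: 31 without control 1, 19 without control 2, 242 without control 3 (145 higher, 97 lower) and 132 without YOD1 library 3. With the replicate number as a block (replicate block) 41 genes were called (33 higher, 8 lower) and Cish had adjusted p = 0.227. Deviations of libraries with the same number correlated at 0.30, -0.12 and -0.11, and those with unlike numbers at -0.41 to 0.34. Deviations within a group sum to 0, so these values constrain each other and cannot settle whether the numbers pair the libraries. Socs1, Socs2 and Socs6 were fitted without a filter in each alternative, and a filter of 5 FPKM left Socs3 and Socs7 alone to be tested. Among the partner genes, median-ratio scaling turned the sign of Ifngr1 (0.028), Pim1 (0.012) and Irf1 (0.025). Length correction turned Elob (-0.14) and Bcl3 (-0.028), and length and GC correction turned Elob (-0.25), Bcl3 (-0.20) and Spsb3 (-0.0005). With 1 library left out, Elob ran from -0.11 to 0.20, Ifnar1 from -0.39 to 0.022, Egfr from -0.10 to 0.28, Bcl3 from -0.14 to 0.21, Irf1 from -0.16 to 0.039, Ptpn2 from -0.31 to 0.013 and Spsb3 from -0.041 to 0.30. The causes of these shifts were not tested.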

Other observations

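The SOCS box also occurs in proteins outside the SOCS family, which recruit other substrates to the same kind of ligase. Of 14 such genes, 13 were tested and 0 were called, with 5 above and 8 below 0 and a median of -0.18. The shares over all tested genes were 0.479% called and 63.6% below 0. In 4 of them the YOD1 group was lower without overlap, against 19.1% of all tested genes. Asb8, an ankyrin-repeat member, stood at 15.4 and 10.9 FPKM in the group means without overlap (log2 fold change -0.45, limma adjusted p = 0.124), and Wsb2, a WD-repeat member, at 21.8 and 17.1 FPKM without overlap (limma adjusted p = 0.222). These 2 genes were chosen after their values were seen. The most abundant members of that list were Asb6 and Spsb3, with control means of 28.6 and 26.7 FPKM and YOD1 means of 33.2 and 30.3 FPKM.

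Of 13 listed cytokines that act through JAK kinases, 12 were in the table and 3 were tested. Among these 0 were called, against 0.479% of all tested genes. Lif, a gp130 ligand, stood at 9.78 ± 4.63 and 6.58 ± 0.13 FPKM (SD, n = 3 each; limma adjusted p = 0.470), and without control 3, which was the lowest of the 6 libraries at 4.46 FPKM, its log2 difference was -0.83 (limma adjusted p = 0.039). Il11 had group means of 0.207 and 0.110 FPKM, under the filter. Il6 did not exceed 0.0496 FPKM in controls and 0.119 FPKM in YOD1 libraries, and was listed at 0 in 1 library of each group. The interferon gene Ifnb1 was listed at 0 in 5 libraries and at 0.281 FPKM in YOD1 library 3.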
